A study of Mus musculus with 12 samples.

Results

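The genes described here are 33 mouse genes that interferons are known to induce, measured in laser-dissected mucosa of the ileum and colon of mice with a fibroblast-directed knockout of the nuclear receptor PPARβ/δ (gene Ppard) and of their floxed littermates. Members were chosen by name: a row of the deposited table belonged to a gene when the platform annotation gave it exactly 1 symbol, and a gene's value on an array was the median of its rows, on a log2 scale. All 33 were found, with 843 of the 580167 rows that carry a single symbol, among 31276 genes so measured. No row with several symbols named any of them. All values below are log2 array signals, and all differences are on the log2 scale.

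The 12 arrays fall into 4 groups of 3. They are ileum mucosa of FSPCre-PPARB -/- mice (ileum knockout), ileum mucosa of PPARB flox/flox mice (ileum floxed), colon mucosa of FSPCre-PPARB -/- mice (colon knockout) and colon mucosa of PPARB flox/flox mice (colon floxed). All were untreated male littermates on the C57BL6/J background, killed at 4 to 6 weeks of age, and the floxed controls carry the floxed alleles without a Cre in their label. The Cre is named for FSP, the fibroblast-specific protein encoded by S100a4, whereas the material is whole dissected mucosa. One label names sectioned tumours as the tissue source, while titles, tissue and design name mucosa. Nothing in the labels ties equal array numbers to a mouse or states that each array is a mouse of its own. The p-values therefore cover the variation among these arrays, part of which may be technical.

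Cells that sense viral or misplaced nucleic acid secrete type I and type III interferons, and lymphocytes secrete interferon gamma. Type I and III interferons act through a complex with STAT2 and IRF9 that binds the interferon-stimulated response element (ISRE) in target promoters, whereas interferon gamma acts mainly through the gamma-activated site (GAS). In the gut, type III interferon acts chiefly on the epithelium and type I interferon chiefly on cells beneath it, and a low steady level of these genes is kept up by the resident microbes. The products detect viral RNA, block viral translation or budding, or tag proteins with ISG15, and many act again within the same pathway.

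Promoter windows, from 250 bases before to 50 after the transcription start, were given by RefSeq (GRCm38.p6) for 24 of the 33 genes. The ISRE core was searched as GAAANNGAAA or its reverse complement TTTCNNTTTC, and the GAS core as TTCNNNGAA, which is its own reverse complement. The ISRE core was found in 15 of the 24 members' windows, 62.5%, against 1079 of 27025 genes with a window, 3.99%. The GAS core was found in 6 of 24, 25%, against 9.55% of genes. In Bst2 a GAS match overlaps an ISRE match, and the match of Ifih1 lies after its start site. Because the members are known interferon targets, these shares describe the list, and a match is a run of letters only. The 5 stretches first printed are those of the members whose replicates differed most among those with an ISRE core before the start, and Irf1 is added for its GAS core; they were chosen after the values were seen. Capitals mark the ISRE core in the first 5 and the GAS core in Irf1, and each stretch is written 5′ to 3′ on the gene's strand.
Isg15, chr4:156200819-156200988, minus strand: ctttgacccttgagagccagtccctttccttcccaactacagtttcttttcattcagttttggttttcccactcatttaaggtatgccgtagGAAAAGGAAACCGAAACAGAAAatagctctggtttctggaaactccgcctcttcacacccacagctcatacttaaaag
Ifit3, chr19:34583359-34583528, plus strand: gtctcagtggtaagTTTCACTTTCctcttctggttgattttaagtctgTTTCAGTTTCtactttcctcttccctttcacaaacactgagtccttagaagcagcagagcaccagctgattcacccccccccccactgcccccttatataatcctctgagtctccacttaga
Ifit1, chr19:34640719-34640888, plus strand: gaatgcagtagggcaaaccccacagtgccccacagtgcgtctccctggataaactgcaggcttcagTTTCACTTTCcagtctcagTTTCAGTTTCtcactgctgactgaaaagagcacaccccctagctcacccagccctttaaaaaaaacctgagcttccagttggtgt
Bst2, chr8:71537473-71537642, minus strand: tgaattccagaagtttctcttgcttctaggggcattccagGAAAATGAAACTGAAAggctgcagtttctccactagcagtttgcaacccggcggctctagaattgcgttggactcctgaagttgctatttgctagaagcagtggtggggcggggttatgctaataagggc
Oas1a, chr5:120907526-120907695, minus strand: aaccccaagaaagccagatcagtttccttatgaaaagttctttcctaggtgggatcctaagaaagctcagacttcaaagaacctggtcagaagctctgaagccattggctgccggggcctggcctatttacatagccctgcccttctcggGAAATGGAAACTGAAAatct
Irf1, chr11:53769844-53770013, plus strand: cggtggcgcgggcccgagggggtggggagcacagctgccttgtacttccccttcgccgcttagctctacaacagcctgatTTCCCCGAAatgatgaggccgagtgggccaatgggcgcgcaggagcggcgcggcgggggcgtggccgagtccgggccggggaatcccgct
Isg15 carries 3 overlapping ISRE cores, and Bst2 and Oas1a carry 2 that overlap. Ifit3 and Ifit1 carry 2 that stand apart. Differences in these genes by genotype are given below.

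The targeted gene was not lower on the knockout arrays. Ileum knockout arrays had a mean Ppard signal of 6.78, against 6.39 on ileum floxed arrays, and the difference was 0.39 (limma, Benjamini-Hochberg adjusted p = 0.711). Colon knockout arrays had 6.88 against 6.74 on colon floxed arrays, and the difference was 0.15 (adjusted p = 0.89). The labels do not place the deletion within the gene, so Ppard does not check the knockout labels, and the groups are called knockout as labelled. The tissue labels fitted the levels of Fabp6, the ileal bile acid binding protein, at 10.74 and 10.56 in ileum knockout and floxed mucosa against 3.42 and 3.74 in colon knockout and floxed mucosa. Car1, a colonic carbonic anhydrase, ran the other way, at 3.22 and 2.77 in ileum knockout and floxed mucosa against 10.30 and 8.96 in colon knockout and floxed mucosa. Arrays of one group correlated at 0.954 to 0.979 across genes, which are not independent replicates. Ileum knockout 1 and colon floxed 2 stood farthest from the other arrays, each on a principal component.

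Replicate arrays differed widely in the interferon-induced genes. The median within-group SD of the 33 was 0.31, against 0.23 over all 31276 genes. Isg15, the ubiquitin-like modifier, had the widest spread, with an SD of 0.87, followed by Ifit3 at 0.74, Usp18 at 0.62 and Ifit1 at 0.62. These 4 were named after their values were seen. Isg15 has 6 rows, Ifit3 5 and Ifit1 5, against 23 for Usp18. A median over few rows is less steady, and the part of this in the spread was not tested. Isg15 read 5.31, 5.96 and 5.46 in ileum knockout, 6.22, 4.90 and 5.37 in ileum floxed, 6.50, 6.56 and 4.79 in colon knockout, and 6.02, 3.86 and 5.81 in colon floxed mucosa. Every pair of groups overlapped, and the extremes of the 12 arrays, 6.56 and 3.86, were colon arrays of opposite genotype. Knockout minus floxed, Isg15 differed by 0.08 in ileum and by 0.72 in colon. The colon value was the largest of the 33 there (unadjusted p = 0.2305, limma adjusted p = 0.8453). Ifit3, which binds viral RNA together with Ifit1, read 4.57, 5.13 and 3.85 in ileum knockout, 4.86, 4.31 and 4.40 in ileum floxed, 5.39, 4.75 and 3.30 in colon knockout, and 4.89, 3.40 and 4.09 in colon floxed mucosa. Usp18, the protease that removes ISG15 and damps type I interferon signalling, read 4.56, 4.72 and 3.99 in ileum knockout, 5.02, 4.42 and 4.26 in ileum floxed, 5.09, 4.81 and 3.74 in colon knockout, and 4.84, 3.26 and 4.59 in colon floxed mucosa. The lowest colon array was knockout 3 for Ifit3 and floxed 2 for Usp18, so both genotypes held a low array. Knockout minus floxed, Ifit3 differed by -0.0043 in ileum and 0.355 in colon, Usp18 by -0.14 and 0.32, and Ifit1 by 0.10 and 0.27.

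**Figure D1:**
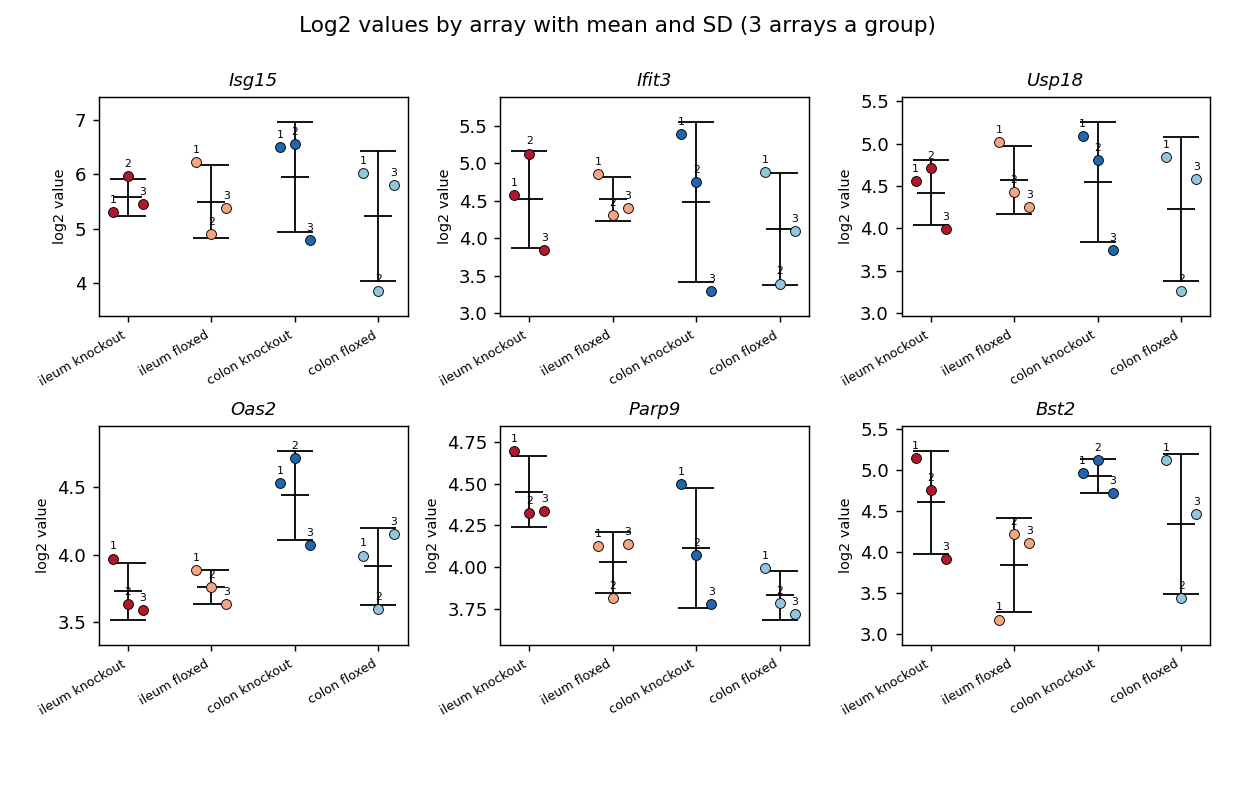
Log2 signal (vertical axis) of Isg15, Ifit3, Usp18, Oas2, Parp9 and Bst2 on each of the 12 arrays, with numbered points for arrays and bars for the group mean ± SD (n = 3). Colon floxed 2 is the lowest colon floxed point for each gene drawn except Parp9, with Isg15 at 3.86, and ileum knockout lies above ileum floxed mucosa without overlap for Parp9.

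The same arrays were high or low for many members. Colon knockout 1 had the highest value of its group for 21 of the 33 members, against 34.3% of all genes, and colon knockout 3 had the lowest for 26 of 33, against 34.9%. Colon floxed 1 was highest for 21, against 34.4%, and colon floxed 2 lowest for 22, against 34.6%. Ileum knockout 1 was highest for 21, against 30.6% of all genes, and ileum knockout 3 was lowest for 21, against 27.9%, and highest for 0. In ileum floxed mucosa array 1 was highest for 18, against 30.3%, and array 2 lowest for 16, against 33.5%. Among genes brighter than the median gene, colon knockout 1 was highest for 44.6%, colon floxed 1 for 46% and ileum knockout 1 for 40.8%. Colon knockout 3 was lowest for 43.8% of these bright genes, colon floxed 2 for 46.8% and ileum floxed 2 for 42.6%. On those arrays other bright genes leaned the same way. They did so less elsewhere, as ileum knockout 3 was lowest for 33.3% of them and ileum floxed 1 highest for 33.1%.

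**Figure D2:**
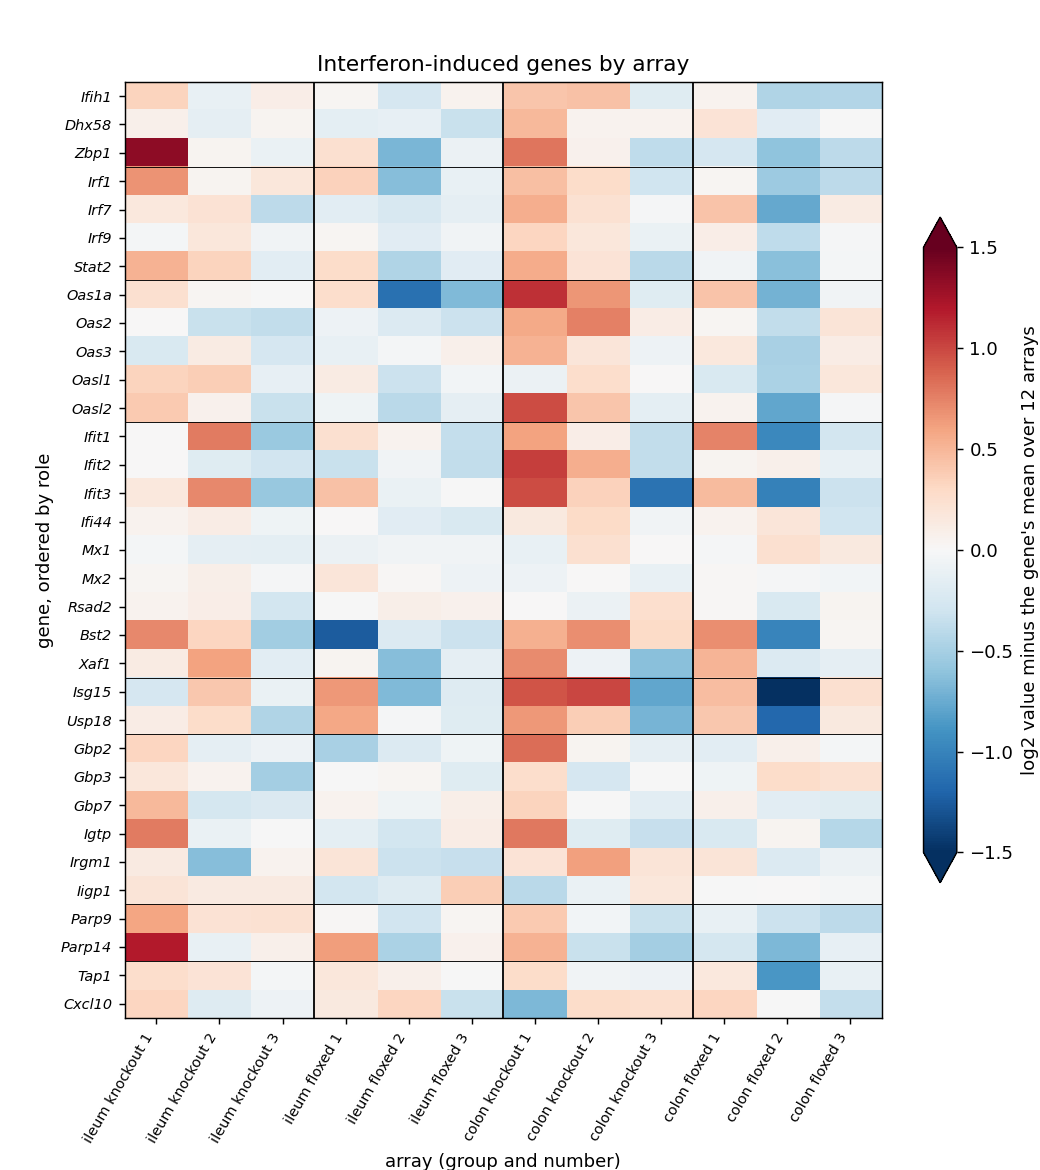
Difference of each member's log2 signal on an array from that member's mean over the 12 arrays, with members in rows by role and arrays in columns; colours are capped at ±1.5. Colon floxed 2 is low and colon knockout 1 is high for most members, and the same spread appears within each genotype.

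Several members lay close to the level of the negative-control rows, whose median on each array was 2.46 to 2.71. Mx1, a GTPase against influenza-like viruses that is defective in this mouse strain, ranged from 2.67 to 3.06, and Mx2 from 2.87 to 3.17. Rsad2, which makes a chain-terminating nucleotide, ranged from 2.65 to 3.18, Ifi44 from 2.07 to 2.66, and Iigp1, a GTPase of pathogen vacuoles, from 2.26 to 3.02. Ifit2 had its lowest array at 2.48 and Ifih1 at 2.61. Array signal compresses at such levels, so differences in these genes can be understated. Of the 33, 21 were brighter than the median gene, which stood at 3.74. Families with closely related members (the Oas1, Ifit1, Ifit3, Gbp and Mx genes) can share signal between similar sequences, so their values are uncertain.

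In the colon, the knockout was compared with the floxed control to ask which genes differ when Ppard is targeted in fibroblasts. Most interferon-induced genes had a positive difference, but none passed the test. Differences were positive for 27 of 33 members, with a median of 0.29 and a range of -0.15 to 0.72, against 49% positive over all genes. By limma with Benjamini-Hochberg adjustment over all 31276 genes, 0 members and 0% of all genes passed an adjusted p of 0.05, and the smallest member value was 0.844. At an unadjusted p under 0.05, 3 members passed, all positive, against 4.78% of all genes. All 3 sensors and all 4 transcription factors had positive differences, with medians of 0.50 and 0.34, as did all 5 oligoadenylate synthetase genes, with a median of 0.52. Of the 9 other antiviral effectors 6 were positive, and of the 6 GTPases 4.

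The 4 colon members of smallest p were Oas2, Ifih1, Oasl2 and Oas1a. Oas2, which makes the 2′-5′ oligoadenylates that switch on RNase L, read 4.53, 4.71 and 4.07 in colon knockout against 3.99, 3.60 and 4.15 in colon floxed mucosa. The groups overlapped in the lowest knockout and highest floxed array. The difference was 0.52 (SE 0.20, 95% interval 0.10 to 0.95, unadjusted p = 0.0195, limma adjusted p = 0.844), or 1.44-fold. Ifih1, the MDA5 sensor of long double-stranded RNA, read 3.48, 3.50 and 2.87 in colon knockout against 3.12, 2.61 and 2.62 in colon floxed mucosa, differing by 0.50. Oasl2, an oligoadenylate synthetase-like protein, read 5.69, 5.12 and 4.56 in colon knockout against 4.76, 3.92 and 4.68 in colon floxed mucosa, differing by 0.66. Oas1a, another such synthetase, read 6.59, 6.16 and 5.32 in colon knockout against 5.93, 4.79 and 5.45 in colon floxed mucosa, differing by 0.63. In all 4 the groups overlapped, and the adjusted p was 0.844 for each (limma). Without colon knockout 1, colon floxed 2 and ileum knockout 1, a setting chosen after seeing the data, the differences were 0.32 for Oas2, 0.32 for Ifih1, 0.11 for Oasl2 and 0.05 for Oas1a. That setting removes knockout arrays often high and a floxed array often low for the members, which by itself lowers most differences. With the signal of the array's GC-rich background rows as a covariate, the differences were 0.39, 0.20, 0.28 and 0.09 in the same order. Only 1 member, the autophagy GTPase Irgm1, had groups that did not overlap, with 4.97, 5.39 and 4.96 in colon knockout against 4.96, 4.57 and 4.69 in colon floxed mucosa. The separation was negligible, since the lowest knockout array stood at 4.9637 and the highest floxed array at 4.9621. Over all genes, 10.2% had groups that did not overlap, 4.04% with the knockout arrays higher and 6.18% with them lower.

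In the ileum the same comparison also gave mostly positive differences, and none passed. They were positive for 23 of 33 members, with a median of 0.17 and a range of -0.15 to 0.77, against 48.7% positive over all genes. By limma 0 members and 0% of all genes passed, with a smallest adjusted p of 0.711 among members, and 1 member had an unadjusted p under 0.05, against 6.65% of genes. The sensors and transcription factors were again all positive, with medians of 0.19 and 0.26, whereas 3 of 5 oligoadenylate synthetase genes were. Both ADP-ribosyltransferases had positive differences, with a median of 0.37.

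The 4 ileum members of smallest p were Parp9, Bst2, Zbp1 and Irf1. Parp9, an ADP-ribosyltransferase partner that works with the ubiquitin ligase DTX3L in the interferon response, read 4.70, 4.32 and 4.34 in ileum knockout against 4.13, 3.82 and 4.14 in ileum floxed mucosa. All 3 knockout arrays lay above all 3 floxed arrays, the single member for which this held; 11% of all genes had groups that did not overlap, and 5.06% with knockout higher. The difference was 0.43 (SE 0.19, 95% interval 0.01 to 0.84, unadjusted p = 0.0447, limma adjusted p = 0.711), and 33 of the gene's 39 rows were positive. Bst2, or tetherin, which holds budding virus at the cell surface, read 5.14, 4.75 and 3.91 in ileum knockout against 3.17, 4.22 and 4.10 in ileum floxed mucosa, a difference of 0.77. Its wide interval ran up to 1.66. The 9 rows of Bst2 differed by -0.16 to 0.70, with 7 positive, so no single row reached the difference of the gene's median. Zbp1, a sensor of Z-form nucleic acid that starts necroptosis, read 6.36, 5.05 and 4.92 in ileum knockout against 5.26, 4.33 and 4.93 in ileum floxed mucosa, a difference of 0.60. Irf1, a transcription factor induced mainly by interferon gamma, read 6.58, 5.95 and 6.07 in ileum knockout against 6.25, 5.27 and 5.80 in ileum floxed mucosa, a difference of 0.43. The groups overlapped for Bst2, Zbp1 and Irf1, and their adjusted p-values were 0.711, 0.719 and 0.720 (limma). With the array background as a covariate the differences were -0.10 (SE 0.18) for Parp9, 0.41 (SE 0.58) for Bst2, -0.53 (SE 0.32) for Zbp1 and -0.40 (SE 0.22) for Irf1. The sign turned for 3 of the 4, but the ileum groups did not overlap in that background, so these values are extrapolated. With the same 3 arrays left out as in the colon, the differences were 0.30, 0.50, 0.15 and 0.24 in the same order.

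The remaining members followed in the same range. Among transcription factors, Stat2 and Irf9, partners in the complex that binds the ISRE, differed by 0.35 and 0.10 in ileum and by 0.36 and 0.23 in colon for knockout minus floxed. Irf7, the factor that amplifies type I interferon production, spanned 5.19 to 6.51 over the 12 arrays and differed by 0.17 in ileum and 0.33 in colon. Among the synthetases, Oas3 differed by -0.10 and 0.28, and Oasl1, which restrains the translation of Irf7 in mice, by 0.28 and 0.24. Xaf1, a promoter of cell death, differed by 0.43 in ileum and -0.05 in colon, with arrays from 3.89 to 5.23.

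Of the 6 GTPases that act on pathogen-holding vacuoles, 4 had positive differences in each tissue, with medians of 0.10 in ileum and 0.22 in colon. Gbp2 differed by 0.29 in ileum and 0.29 in colon, Gbp3 by -0.04 and -0.15, Gbp7 by -0.02 and 0.15, and Igtp by 0.33 and 0.29. Irgm1 differed by 0.01 in ileum and 0.37 in colon, and Iigp1 by 0.19 and -0.10. Igtp read 4.23 on ileum knockout 1 and 4.24 on colon knockout 1, and between 3.02 and 3.56 on the other 10 arrays, so 1 knockout array in each tissue stood apart. Parp14, an ADP-ribosyltransferase, differed by 0.31 in ileum and 0.25 in colon and read highest on ileum knockout 1, at 5.75. Tap1, the peptide transporter for class I antigen presentation, differed by 0.07 and 0.32. Cxcl10, a chemokine that draws T cells, spanned 2.87 to 3.87 and differed by -0.03 and -0.04. The groups overlapped in both tissues for all of these remaining members except Irgm1 in colon, where they barely separated.

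Averaged over both tissues, knockout minus floxed was positive for 29 of 33 members with a median of 0.20, and 47% of all genes were positive. Parp9 had the smallest p, with a difference of 0.35 (adjusted p = 0.463, limma), and no member passed against 0% of genes. The 7 members with unadjusted p under 0.05 were Parp9, Bst2, Oas1a, Ifih1, Irf1, Zbp1 and Oasl2, against 10.7% of all genes. Bst2 differed by 0.68, Oas1a by 0.61 and Ifih1 by 0.33. With the array background as a covariate these averages were -0.05 for Parp9, 0.40 for Bst2, -0.16 for Oas1a and -0.09 for Ifih1. Their ileum part is extrapolated, because the ileum groups did not overlap in that background. This average uses the same arrays as the comparisons within each tissue and adds nothing independent of them. The genotype-by-tissue term asked whether the difference in ileum exceeded that in colon. It was positive for 15 of 33 members, against 50.6% of all genes, with a median of -0.01, and 0 members and 0% of genes passed (smallest adjusted p 0.9999, limma). The term for Oas2 was -0.56 (95% interval -1.16 to 0.05). In the ileum Oas2 had read 3.97, 3.63 and 3.59 in knockout against 3.88, 3.76 and 3.64 in floxed mucosa. Its ileum difference was -0.03.

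**Figure D3:**
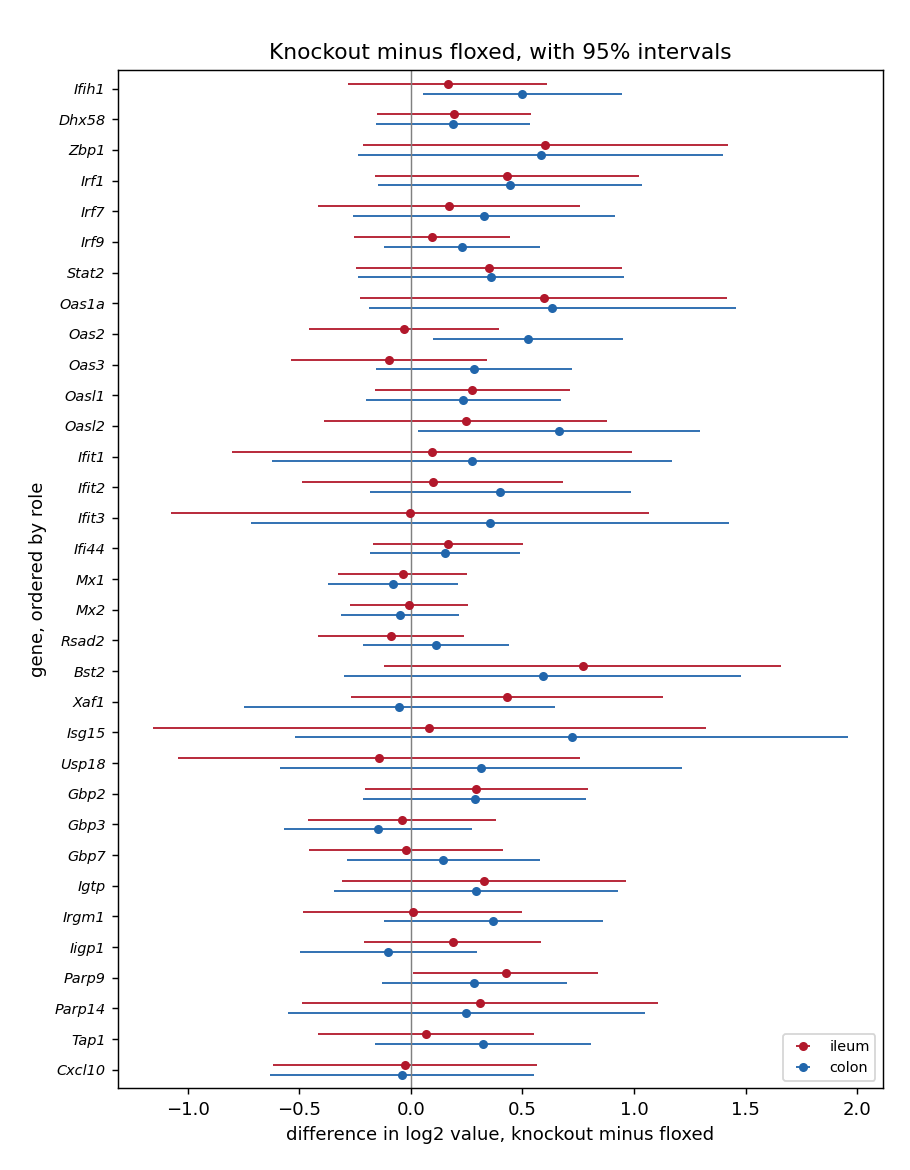
Knockout minus floxed difference of each member (horizontal axis, log2) in ileum and in colon, with 95% intervals from limma, grouped by role; the line marks 0. Most points lie right of 0 in both tissues and every interval includes 0 except those of Parp9 in ileum and of Oas2, Ifih1 and Oasl2 in colon.

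A p that misses the threshold does not show that the genotypes have equal levels. The 95% intervals of the colon differences reached from -0.75 for Xaf1 to 1.96 for Isg15, and 23 of 33 lay within 1 log2 unit of 0. In the ileum they reached from -1.15 for Isg15 to 1.66 for Bst2, with 24 of 33 within 1 unit. With 3 arrays a group, differences of over 1 log2 unit in the remaining members are not excluded by these intervals.

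Other quantities went with genotype, and their part in the result was not tested. Positive differences were more frequent among bright genes, at 55.4% of those above the median gene in ileum against 41.9% of those below it, and at 62.3% against 35.7% in colon. Of the 21 brighter members 17 were positive in ileum and 20 in colon. The signal of the 11 GC-rich background rows was 6.01 to 6.38 in ileum knockout against 6.60 to 7.06 in ileum floxed mucosa, with no overlap, and 6.32 to 6.76 in colon knockout against 6.60 to 6.97 in colon floxed mucosa. With that signal as a covariate, 6 of 33 ileum differences and 18 of 33 colon differences were positive. Because the ileum groups did not overlap in it, the ileum value is extrapolated. Without colon knockout 1 the colon median was 0.13, and without colon floxed 2 it was 0.09. Without ileum knockout 1 the ileum median was 0.07. These are the lowest medians from leaving out single arrays, and the full ranges are given below. With all 3 of those arrays left out, 21 of 33 members were positive in ileum and 18 of 33 in colon, with medians of 0.07 and 0.05. The 2 knockout arrays were the highest of their group for 21 members each, and colon floxed 2 the lowest for 22. Leaving them out therefore lowers most differences by the choice itself.

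Markers of other cell types were set beside these differences, and their part was not tested either. Over all genes, 48.7% were positive for knockout minus floxed in ileum and 49% in colon. Among genes above the median gene these shares were 55.4% and 62.3%. Over 8 epithelial markers the mean level lay at 7.99 to 8.51 on ileum knockout arrays, 7.20 to 8.04 on ileum floxed arrays, 7.37 to 7.90 on colon knockout arrays and 7.08 to 7.74 on colon floxed arrays, and 8 of 8 were positive for knockout minus floxed in ileum and 7 of 8 in colon. Over 8 macrophage markers it lay at 4.89 to 5.36 on ileum knockout arrays, 4.63 to 4.82 on ileum floxed arrays, 4.59 to 5.12 on colon knockout arrays and 4.54 to 4.66 on colon floxed arrays, with 6 of 8 positive in each tissue. T cell and intraepithelial lymphocyte markers were positive for 6 of 10 in each tissue, and the 5 B cell and plasma cell markers for 1. Smooth muscle and fibroblast markers were mostly positive as well, although the mean levels of knockout and floxed arrays overlapped in each tissue. The 5 smooth muscle markers were positive for 5 of 5 in each tissue, with medians of 0.60 in ileum and 0.23 in colon. Their mean level lay at 5.41 to 6.84 on ileum knockout arrays, 5.03 to 5.68 on ileum floxed arrays, 5.10 to 5.53 on colon knockout arrays and 4.90 to 5.39 on colon floxed arrays. The 6 fibroblast and matrix markers, collagens among them, were positive for 6 of 6 in ileum and 5 of 6 in colon, with medians of 0.20 and 0.17. Their mean level lay at 5.06 to 5.77 on ileum knockout arrays, 4.86 to 5.18 on ileum floxed arrays, 5.20 to 5.72 on colon knockout arrays and 5.14 to 5.47 on colon floxed arrays. Small-intestinal enterocyte markers were positive for 8 of 8 in ileum and 5 of 8 in colon, colonocyte markers for 5 of 6 and 2 of 6, and endothelial markers for 3 of 4 and 2 of 4. Dendritic cell markers were positive for 1 of 6 in ileum and 2 of 6 in colon, and neutrophil markers for 2 of 4 and 1 of 4. None of these markers passed in a genotype comparison. In such bulk samples, fewer cells of a type and less RNA per cell cannot be told apart.

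Ileum and colon were compared within each genotype and averaged, to ask whether the gut regions keep different steady levels of these genes. No member passed in any of the 3 comparisons, and few of all genes did. By limma, 0 of 33 members passed for ileum knockout against colon knockout, against 0.79% of all genes (0.48% higher in ileum and 0.31% lower). None passed in floxed mucosa, against 0.588% (0.396% higher and 0.192% lower), and none in the average, against 1.81% (1.03% higher and 0.78% lower). For 33 members, counts of 0 lie near these shares. At an unadjusted p under 0.05 there was 1 member in knockout mucosa, against 7.36% of all genes, 0 in floxed mucosa, against 6.27%, and 1 in the average, against 9.51%. The averaged difference was positive for 17 of 33, against 47.2% of all genes, with a median of 0.01, and 30 of 33 intervals lay within 1 unit of 0. They reached from -1.05 for Bst2 to 1.02 for Parp14. Within knockout mucosa 13 of 33 were positive, against 48.2% of all genes, with a median of -0.10. Within floxed mucosa 20 of 33 were positive, against 47.9%, with a median of 0.05.

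Oas2 had the smallest regional p, and it is named after its value was seen, as are Irgm1 and Ifit2. Its ileum knockout arrays at 3.97, 3.63 and 3.59 all lay below the colon knockout arrays at 4.53, 4.71 and 4.07. The difference was -0.71 (SE 0.20, 95% interval -1.13 to -0.28, unadjusted p = 0.00329, limma adjusted p = 0.191), and 24 of 27 rows were negative. In floxed mucosa the difference was -0.15 and the groups overlapped, and the average was -0.43 (adjusted p = 0.217). The knockout comparison shares the colon knockout arrays with the genotype comparison above, so the 2 values for Oas2 are not independent. Irgm1 was the other member without overlap in knockout mucosa, 4.91, 4.14 and 4.83 in ileum against 4.97, 5.39 and 4.96 in colon, a difference of -0.49 (adjusted p = 0.683). Of all genes, 11.4% had groups without overlap in that comparison, 6.24% with ileum lower and 5.17% with ileum higher. Mx1 was the one such member in floxed mucosa, against 11.2% of all genes, 6.12% with ileum lower. It read 2.73, 2.77 and 2.76 in ileum against 2.80, 3.06 and 2.97 in colon, a narrow gap close to the negative controls. Ifit2, an RNA-binding inhibitor of translation, read 2.85, 2.67 and 2.57 in ileum knockout against 3.89, 3.39 and 2.48 in colon knockout mucosa, a difference of -0.56 (adjusted p = 0.723). Without colon knockout 3 it was -0.95 (adjusted p = 0.047, limma), so that 1 array decides the call. The negative-control medians of the ileum knockout arrays were 2.46 to 2.64, close to Ifit2 there, so the size of either difference is uncertain.

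**Figure D4:**
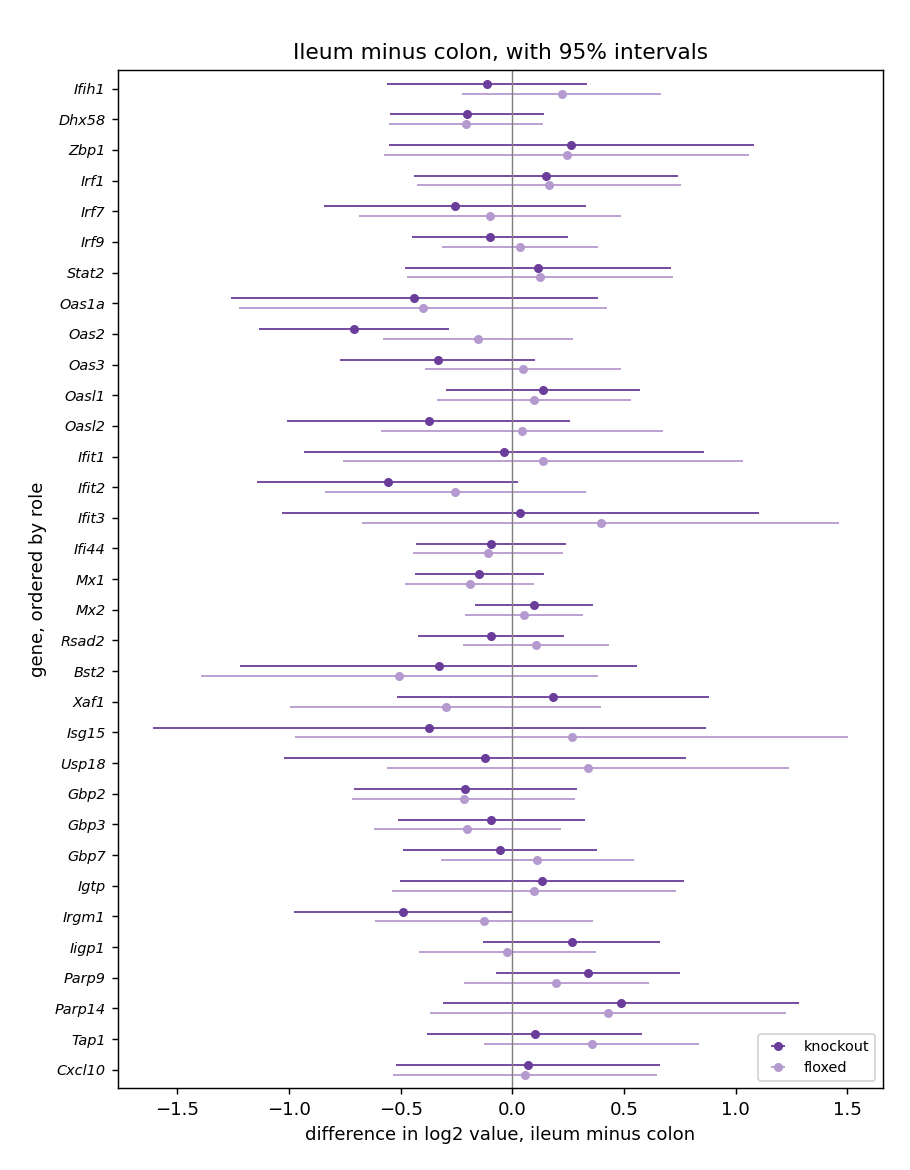
Ileum minus colon difference of each member (horizontal axis, log2) in knockout and in floxed mucosa, with 95% intervals from limma, grouped by role; the line marks 0. Points scatter on both sides of 0, with Oas2 at -0.71 in knockout mucosa.

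A gene's median can hide single rows, each of which is an exon region or a splice junction. Among the 843 member rows none passed in a genotype comparison, against 0% of all rows. Between regions, 2 rows passed in knockout mucosa, against 0.458% of all rows, 1 in floxed mucosa, against 0.346%, and 2 in the average, against 1.14%. One junction row of Mx1 read 8.46, 7.29 and 8.05 in ileum knockout and 8.05, 7.65 and 6.90 in ileum floxed mucosa, against 3.65, 5.46 and 4.55 in colon knockout and 4.02, 4.68 and 5.15 in colon floxed mucosa. The ileum arrays all lay above the colon arrays, by 3.15 in the average (adjusted p = 0.000383, limma over all rows). The other 46 Mx1 rows differed by -0.67 to 0.75 with a median of -0.02, so the row stands apart from its gene. What the row measures was not tested. One junction row of Dhx58, the LGP2 helper of MDA5, read 5.46, 5.26 and 5.31 in ileum knockout and 5.03, 4.74 and 5.14 in ileum floxed mucosa, against 6.99, 7.18 and 6.64 in colon knockout and 6.87, 6.01 and 5.78 in colon floxed mucosa. Its average difference was -1.42 (adjusted p = 0.00284, limma), and the other 33 rows ranged from -0.98 to 0.38 with a median of -0.16. Of all 34 Dhx58 rows, 29 were negative, so most went the same way by less.

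**Figure D5:**
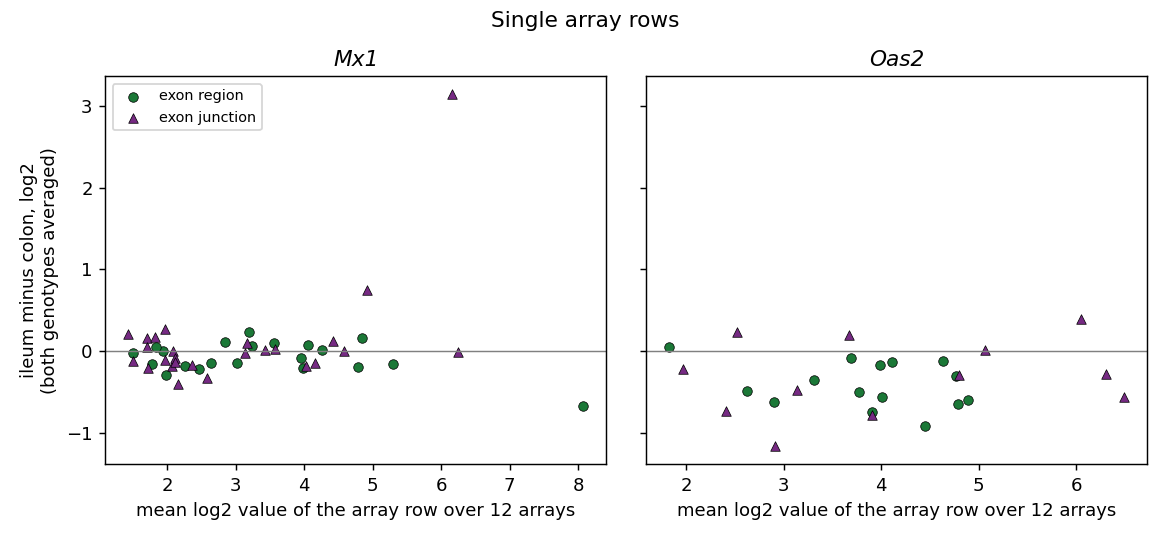
Ileum minus colon difference averaged over genotypes (vertical axis, log2) of each row of Mx1 and Oas2 against the row's mean log2 signal (horizontal axis). The single Mx1 junction at 3.15 lies far above the other rows, and most of the 27 Oas2 rows lie below 0.

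The rest of the interferon pathway gave no call either. The 9 ligand genes, the 6 receptor chains, the 16 of 18 signalling genes that were measured, the 5 inhibitors and the 47 of 50 further interferon-induced genes each had 0 genes called in all 7 contrasts. Over all genes, 0% were called by genotype or in the genotype-by-tissue term, and 0.588% to 1.81% between regions. For lists this short, counts of 0 lie near those shares. The further interferon-induced genes include immunoproteasome subunits, IFITM proteins and further guanylate-binding proteins. For knockout minus floxed they were positive for 37 of 47 in ileum and 41 of 47 in colon, against 48.7% and 49% of all genes. Their medians were 0.14 and 0.19. Their mean level was highest on colon knockout 1, at 4.95, and ileum knockout 1, at 4.94. The same arrays were high for the members, so this list adds nothing independent of them. Ligand genes were positive for 1 of 9 in ileum and 4 of 9 in colon. Receptor genes were positive for 4 of 6 in ileum and 3 of 6 in colon, and signalling genes for 13 of 16 in ileum and 11 of 16 in colon. Between regions, receptor genes were positive for 6 of 6 in the ileum minus colon average, with a median of 0.20, and ligand genes for 5 of 9. Over all genes 47.2% were positive there.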

How the data were processed

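The log2 values of 12 arrays were deposited by the authors as a series matrix. The tools RMA and Partek are listed, per the submitters' processing notes, without version or role; build and settings are not given in the sources used here. RNA was amplified with a WT Pico kit and biotin-labelled, per the labels' protocols. Precision is limited by 3 arrays a group. Rows were named through the platform annotation, with symbols updated through RefSeq; 580167 of 725678 rows had 1 symbol, and 18694 had several and were left out. A gene's value was the median of its rows, with 11 rows in the median gene. Differences were tested with limma 3.58.1 in R 4.3.3, over all 31276 genes and 4 groups, with 8 residual and 4.72 prior degrees of freedom, and Benjamini-Hochberg adjustment at 0.05. The same fit was run on single rows. The steps were tested on simulated data.

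Members, lists and tests were chosen with earlier results of these data known. Named are all members past the threshold and, in a genotype comparison with none, the 4 of smallest p; members named otherwise are said to be. Alternatives were the mean of rows, exon regions alone, quantile normalization, centring on array medians, genes above the negative controls (32 of the 33 members), limma-trend, array background as a covariate, left-out arrays and a replicate block. Promoter sequences are RefSeq's on GRCm38.p6.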

Additional observations from a re-analysis of the deposited data

How the results depend on the processing

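In 21 alternatives no member passed in a genotype comparison or in the genotype-by-tissue term. In the main fit 0% of all genes passed there as well. Shares of all genes under the alternatives are not given here, so these counts do not set the members apart. The added alternative without colon knockout 1, colon floxed 2 and ileum knockout 1 was chosen after seeing the data. Its choice of arrays by itself lowers most genotype differences of the members. Between regions 1 call appeared: without single arrays, members called lower numbered 0 to 1 in knockout mucosa and 0 to 1 in the average. It was Ifit2 without colon knockout 3, at -0.95 (limma adjusted p = 0.047) and -0.60 (adjusted p = 0.0328), and that fit has fewer samples. With array background as a covariate, positive members numbered 6 in ileum genotype (median -0.29), 9 in the genotype average, 7 in the interaction, 5 in ileum minus colon knockout and 8 in the regional average; the cause was not tested. With the 3 arrays left out, positive members numbered 19 in the genotype average and 12 in ileum minus colon floxed. Leaving out single arrays gave 6 to 21 positive members in the interaction, 8 to 19 in ileum minus colon knockout, 12 to 21 in ileum minus colon floxed and 11 to 20 in the regional average. The lowest of these came without ileum knockout 1 (6), colon knockout 3 or ileum knockout 1 (8), colon floxed 2 (12) and colon knockout 3 (11). Without single arrays the colon genotype median ran from 0.09 to 0.45 and the ileum one from 0.07 to 0.20.

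With the number in the titles as a replicate block, 0 members passed in each comparison, and the smallest adjusted p among members was 0.419 in ileum, 0.655 in colon and 0.188 in the genotype average. Same-numbered arrays deviated together with correlations of -0.255 to 0.531 across genes. Pairs numbered 1 ran from 0.21 to 0.531, the highest being colon knockout with ileum knockout. Pairs across genotype cannot be a single mouse, and differently numbered arrays are not given beside them. The values therefore cannot settle whether the numbers pair samples, and the main fit did not use the numbers. The precision is set by 3 arrays a group, and genes near the negative controls have compressed differences.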
